A study of Gallus gallus with 2 samples.

Results

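The genes described here are 10 genes of the phospholipase C and protein kinase C signal chain. The study names protein kinase C below the melanocyte receptor EDNRB2, and the phospholipase C beta and IP3 receptor genes were added here from textbook knowledge of the chain. They are the phospholipase C beta genes PLCB1, PLCB2 and PLCB4, the protein kinase C genes PRKCA, PRKCB, PRKCD, PRKCE, PRKCH and PRKCQ, and the inositol trisphosphate receptor gene ITPR1. Members were taken by gene symbol alone, and all 10 were found among the 15073 genes listed for both libraries. The birds were Xichuan black-bone chickens, and the sample labels give breast muscle at week 12 as the source, while the title of the series speaks of skin. Test group IV received the basal diet with 0.8% added tyrosine, and the control group received the basal diet without it. Each group's single library was made from the mixed RNA of 3 birds, so no difference given here has a replicate check. The age at sampling, the breed and the basal diet were shared by both groups.

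Phospholipase C beta enzymes act directly below receptors that couple to G proteins of the Gq class. They split the membrane lipid PIP2 into diacylglycerol, which stays in the membrane, and inositol trisphosphate (IP3), which diffuses to the endoplasmic reticulum and opens the IP3 receptor, a calcium channel. Diacylglycerol recruits and activates protein kinase C. The conventional isoforms (PRKCA, PRKCB) need calcium as well, and the calcium-independent isoforms (PRKCD, PRKCE, PRKCH, PRKCQ) do not. In human melanocytes the beta isoform is known to phosphorylate tyrosinase, the first enzyme of melanin synthesis. In skeletal muscle the theta isoform, encoded by PRKCQ, is known as the main protein kinase C.

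Counted fragments summed to 14318101 in test group IV and 13135159 in the control group. The level of a gene is given as FPKM, the deposited count of fragments scaled to transcript length and library depth. FPKM is a value per length, so levels of different genes can be set side by side. A fold change divides the FPKM of test group IV by that of the control group. Its 95% counting interval follows from the exact (Clopper-Pearson) limits on how a gene's fragments divide between the libraries. These intervals cover counting error only and leave out the differences between birds, pools and library preparations. Of 12 markers of skeletal muscle fibres, 4 were found by symbol, with FPKM values from 1674 to 9424 in test group IV and from 2215 to 9943 in the control group. In tissue RNA, fewer cells of a type and less RNA per cell cannot be told apart.

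The members spanned an 81.7-fold range of levels in test group IV and a 66.3-fold range in the control group. PRKCQ was the highest member in both libraries, with 105 FPKM in test group IV and 85.6 FPKM in the control group. PRKCA was next with 24.8 FPKM in test group IV and 27.8 FPKM in the control group, and PLCB1 followed with 9.40 FPKM in test group IV and 13.1 FPKM in the control group. These 3 genes stood in this order in both libraries, and each step between them was larger than counting error. The other 7 members lay between 1.28 and 4.51 FPKM in test group IV and between 1.29 and 3.88 FPKM in the control group. Among them most neighbours in the order were not apart beyond counting error. In test group IV, PLCB2 had 1.91 times the FPKM of PLCB4 (95% interval from 1.51 to 2.43). In the control group the same ratio was 1.03 (95% interval from 0.759 to 1.40). PRKCD was the lowest member in both libraries.

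**Figure D1:**
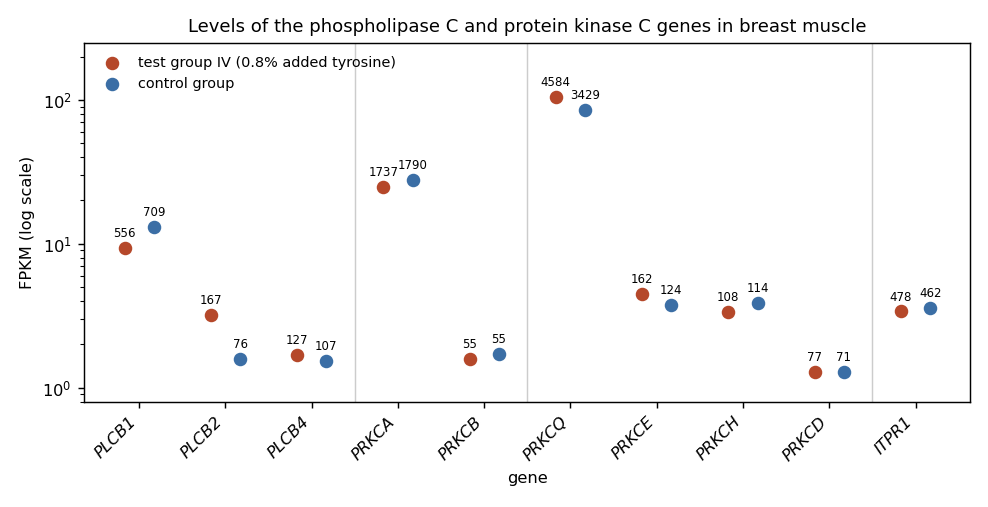
FPKM of each member on a log axis, with test group IV in red at the left and the control group in blue at the right of each gene; the number above a point is its fragment count, and each point is 1 library of 3 pooled birds. PRKCQ lies highest at 105 and 85.6 FPKM, and PLCB2 shows the widest relative gap, with 3.21 FPKM in test group IV and 1.59 FPKM in the control group.

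The 3 phospholipase C beta genes differed from each other in direction. PLCB1, a widely expressed isoform that is abundant in mammalian brain, had 556 fragments in test group IV and 709 fragments in the control group. Its fold change was 0.719 (95% interval from 0.643 to 0.805; log2 value -0.48), so it was lower in test group IV by more than counting error. PLCB2, known mainly from blood cells and, in mammals, taste cells, had 167 fragments in test group IV and 76 fragments in the control group. Its fold change of 2.02 (95% interval from 1.53 to 2.68) was the largest of the members, and of all genes compared, 3.02% had a log2 fold change at least as high. PLCB4, known mainly from retina and cerebellum in mammals, had 127 fragments in test group IV and 107 fragments in the control group, and the 95% interval of its fold change, from 0.835 to 1.42, included no change.

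The ratio of one gene to another within a library does not depend on how the libraries are scaled. The FPKM of PLCB2 was 0.341 times that of PLCB1 in test group IV and 0.122 times in the control group. This ratio was therefore 2.80 times as high in test group IV (95% counting interval from 2.07 to 3.81). PLCB2 also gained on PLCB4, by 1.85 times (95% interval from 1.25 to 2.74). Against PLCB4, PLCB1 stood at 0.661 of its ratio in the control group (95% interval from 0.494 to 0.883). In test group IV, PLCB1 held 65.8% of the summed FPKM of the 3 genes, PLCB2 22.4% and PLCB4 11.7%. In the control group, PLCB1 held 80.7%, PLCB2 9.82% and PLCB4 9.51%. The sum itself was 14.3 FPKM in test group IV and 16.2 FPKM in the control group.

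Scaling decides whether PLCB2 reaches a 2-fold difference. Its log2 fold change was 1.01 as deposited and 0.92 after median ratio scaling, and its 95% interval was then from 0.52 to 1.33. Because PLCB2 is known from blood cells, markers of such cells are given beside it. Their values are as deposited, and median ratio scaling shifts every log2 fold change by -0.09. As deposited, 6677 of the 11010 compared genes were higher in test group IV and 4333 were lower. Of 7 compared leukocyte markers, 5 were higher and 2 lower in test group IV, and the summed FPKM of the 8 found markers was 43.4 in test group IV and 37.3 in the control group. Of 9 compared macrophage markers, 7 were higher, and the sum over 10 found markers was 289.7 FPKM in test group IV and 219.8 FPKM in the control group. Of 4 compared T cell markers, 2 were higher and 2 lower, and only the interval of LCK left out 0. LCK stood at 3.43 FPKM in test group IV and 1.48 FPKM in the control group. All 3 compared B cell markers were higher, with a sum over 6 found markers of 53.6 FPKM in test group IV and 36.4 FPKM in the control group. JCHAIN made up most of this sum, with 48.7 FPKM in test group IV and 33.7 FPKM in the control group. None of the markers found for these 4 cell types was at 0 in test group IV. In the control group none could be, because genes at 0 there are not listed. The other blood cell lists did not move this way. The 3 found thrombocyte markers, none of which was compared, summed to 0.839 FPKM in test group IV and 1.46 FPKM in the control group. These sums rest on 20 fragments in test group IV and 31 fragments in the control group. Only GP1BB differed in count, with 9 fragments in test group IV and 20 fragments in the control group. Both compared erythroid markers were lower, but within counting error. The sum over 3 found was 19.6 FPKM in test group IV and 20.5 FPKM in the control group. EPB42 was at 0 in test group IV and had 3 fragments in the control group. The FPKM of PLCB2 was 7.39% of the summed leukocyte markers in test group IV and 4.27% in the control group. For the macrophage sum these values were 1.11% in test group IV and 0.724% in the control group. CD74 alone gave 207.2 FPKM of the macrophage sum in test group IV and 154.4 FPKM in the control group. PLCB2 differed by more than the leukocyte or the macrophage sum. Its fold change was below those of the single markers C1QB (2.35) and LCK (2.32), but the counting intervals overlapped. On the log2 scale as deposited they were 0.61 to 1.42 for PLCB2, 0.83 to 1.65 for C1QB and 0.83 to 1.61 for LCK. All 5 compared melanocyte markers were higher, and the interval lay above 0 for 4 of them, EDNRB2 among them. SOX10 was higher within counting error, with a log2 interval from -0.34 to 0.895. Of the 8 found, 7 were higher. KIT, below the filter, was lower within counting error, with a log2 interval from -0.79 to 0.42. The sum over the 8 was 13.4 FPKM in test group IV and 2.33 FPKM in the control group. The part of these cell types in the PLCB2 difference was not tested.

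PLCB1, in contrast, was lower, and markers of cell types other than blood cells are given beside it. Of 4 compared skeletal muscle fibre markers, 2 were higher and 2 lower. ENO3, 1 of the lower markers, had a log2 fold change of -0.40, with an interval from -0.42 to -0.39. Of 6 compared smooth muscle markers, 5 were lower in test group IV, with log2 fold changes from -0.53 to -0.32, and DES, which skeletal fibres share, was higher. Without DES, the smooth muscle markers summed to 56.1 FPKM in test group IV and 74.8 FPKM in the control group. All 3 compared adipocyte markers were lower, with a sum over 4 found of 44.5 FPKM in test group IV and 69.5 FPKM in the control group, and CIDEC was at 0 in test group IV. Of 3 compared Schwann cell and nerve markers, 2 were lower, with a sum over 5 found of 16.8 FPKM in test group IV and 25.6 FPKM in the control group. The endothelial markers summed to 58.5 FPKM in test group IV and 57.3 FPKM in the control group. The part of these cell types in the PLCB1 difference was not tested.

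**Figure D2:**
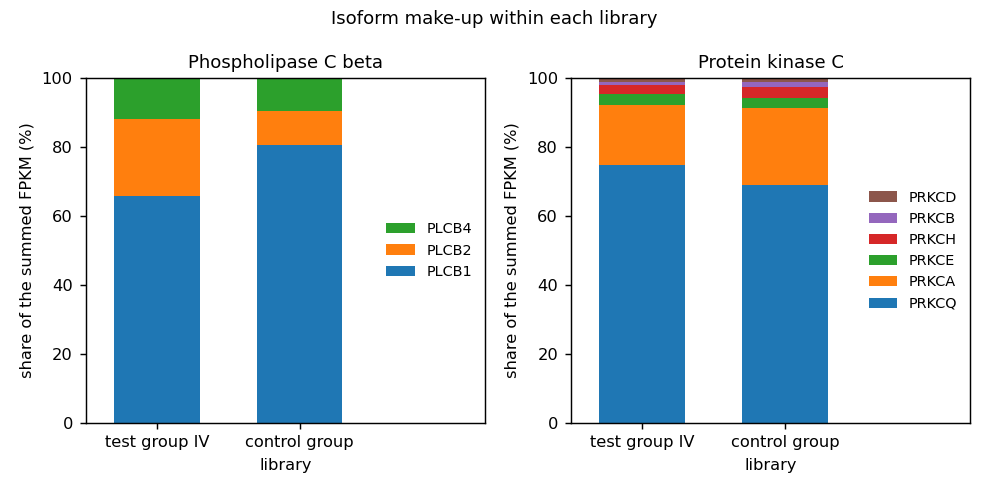
Share of each gene in the summed FPKM of the 3 phospholipase C beta genes (left panel) and of the 6 protein kinase C genes (right panel), in percent, with the test group IV library at the left and the control group library at the right of each panel. PLCB2 fills 22.4% of its bar in test group IV and 9.82% in the control group, and PRKCQ fills 74.7% in test group IV and 69.0% in the control group.

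Among the conventional protein kinase C genes, PRKCA was slightly lower and PRKCB did not differ beyond counting error. PRKCA, the widely expressed alpha isoform, had 1737 fragments in test group IV and 1790 fragments in the control group, a fold change of 0.890 (95% interval from 0.833 to 0.951). PRKCB, the beta isoform named above for tyrosinase, had 55 fragments in each library, or 1.58 FPKM in test group IV and 1.73 FPKM in the control group. Its log2 fold change of -0.12 has a 95% interval from -0.69 to 0.44, which is a fold change between 0.620 and 1.36. PRKCB is also known from B cells, whose 3 compared markers were all higher in test group IV. The part of B cells in the PRKCB value was not tested.

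The calcium-independent isoforms were headed by PRKCQ, which had 4584 fragments in test group IV and 3429 fragments in the control group. Its fold change of 1.23 (95% interval from 1.17 to 1.28) was small and larger than counting error. After median ratio scaling its log2 fold change was 0.20, against 0.29 as deposited, with a 95% interval from 0.14 to 0.27. By FPKM, PRKCQ ranked at place 381 of all listed genes in test group IV and at place 482 in the control group. PRKCQ is also the isoform of T cells. Their 8 found markers summed to 14.7 FPKM in test group IV and 12.8 FPKM in the control group. Of the 4 compared T cell markers, 2 were higher and 2 lower, and only the interval of LCK left out 0. CD3E, the highest of the list, had 5.22 FPKM in test group IV and 5.60 FPKM in the control group. The part of T cells in the PRKCQ difference was not tested. PRKCE, the epsilon isoform, had 162 fragments in test group IV and 124 fragments in the control group, and its 95% interval on the log2 scale was from -0.09 to 0.61. PRKCH, the eta isoform known from epithelia and lymphocytes in mammals, had 108 fragments in test group IV and 114 fragments in the control group, with an interval from -0.60 to 0.19. PRKCD, the delta isoform, had 77 fragments in test group IV and 71 fragments in the control group, with an interval from -0.49 to 0.48. For these 3 genes the difference was within counting error, and the sign of the PRKCD value (-0.01) turned when depth was taken without mitochondrial genes (0.01).

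Summed over the 6 protein kinase C genes, the level was 140.5 FPKM in test group IV and 124.1 FPKM in the control group. PRKCQ alone accounts for the higher sum, since the other 5 genes added up to 35.5 FPKM in test group IV and 38.5 FPKM in the control group. PRKCQ held 74.7% of the sum in test group IV and 69.0% in the control group, and PRKCA held 17.6% in test group IV and 22.4% in the control group. Within a library, the FPKM of PRKCQ was 4.24 times that of PRKCA in test group IV and 3.08 times in the control group, 1.38 times as high in test group IV (95% counting interval from 1.27 to 1.49). The ratio of PRKCE to PRKCH was 1.38 times as high too, but its interval from 0.955 to 1.99 includes no change. PRKCB kept close to PRKCA, with a ratio 1.03 times that of the control group (95% interval from 0.692 to 1.54).

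ITPR1, the type 1 IP3 receptor, is the calcium channel that closes the chain, and it did not differ beyond counting error. It had 478 fragments in test group IV and 462 fragments in the control group, or 3.38 FPKM in test group IV and 3.57 FPKM in the control group. On the log2 scale the difference was -0.08, and the interval reached from -0.26 to 0.11. RYR3, a ryanodine receptor and so a calcium release channel of the muscle sarcoplasmic reticulum, stood at 127.5 FPKM in test group IV and 127.4 FPKM in the control group. The FPKM of ITPR1 was 0.0266 of that of RYR3 in test group IV and 0.0280 in the control group. RYR1 and the IP3 receptor genes ITPR2 and ITPR3 were not found by symbol, so this ratio does not cover them.

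**Figure D3:**
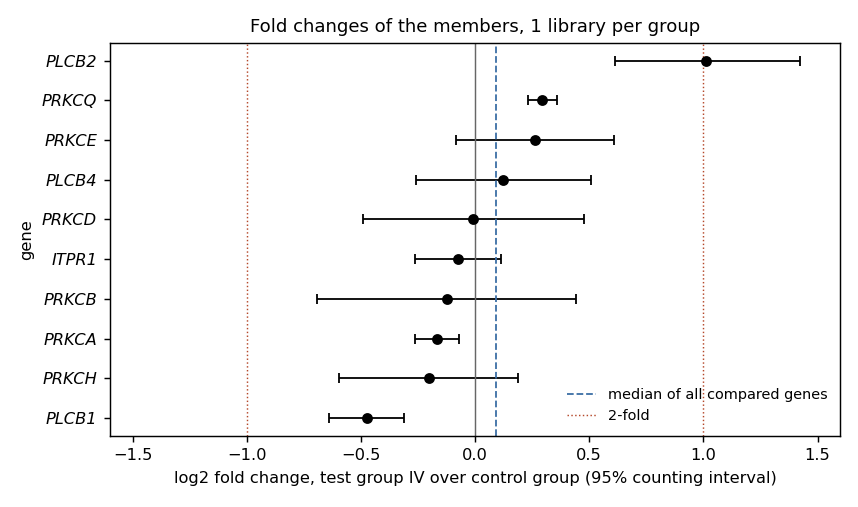
Log2 fold change of each member, test group IV over the control group, as points with 95% counting intervals; the dashed line is the median of all compared genes (0.09) and the dotted lines mark 2-fold. The intervals of PLCB2 and PRKCQ lie above 0, those of PLCB1 and PRKCA lie below 0, and the other 6 hold 0.

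The members are set here against all genes that reached 1 FPKM in either library or both, which were 11010 genes and included all 10 members. A 2-fold or larger excess in test group IV was seen for 1 member (PLCB2) and for 3.1% of the compared genes. A deficit of that size was seen for 0 members and for 3.31% of the compared genes. The lower share includes 37 genes with 0 fragments in test group IV. Genes with 0 fragments in the control group are not listed and cannot add to the higher share. The 95% counting interval lay above 0 for 2 members (PLCB2 and PRKCQ) and for 28.6% of the compared genes. It lay below 0 for 2 members (PLCB1 and PRKCA) and for 15.3% of the compared genes. These shares depend on scaling. Of the compared genes whose interval left out 0, 65.1% were higher as deposited and 48.3% after median ratio scaling. The same 4 members kept their intervals on the same side of 0 under all 4 scalings tried. The median log2 fold change was -0.04 over the 10 members, with 4 higher and 6 lower. Over the compared genes it was 0.09, with 6677 higher and 4333 lower. PLCB1, PRKCA, PRKCB, PRKCD, PRKCH and ITPR1 therefore lay below both 0 and the median of all compared genes. At 1 library per group, none of these differences can be set against the spread between birds.

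**Figure D4:**
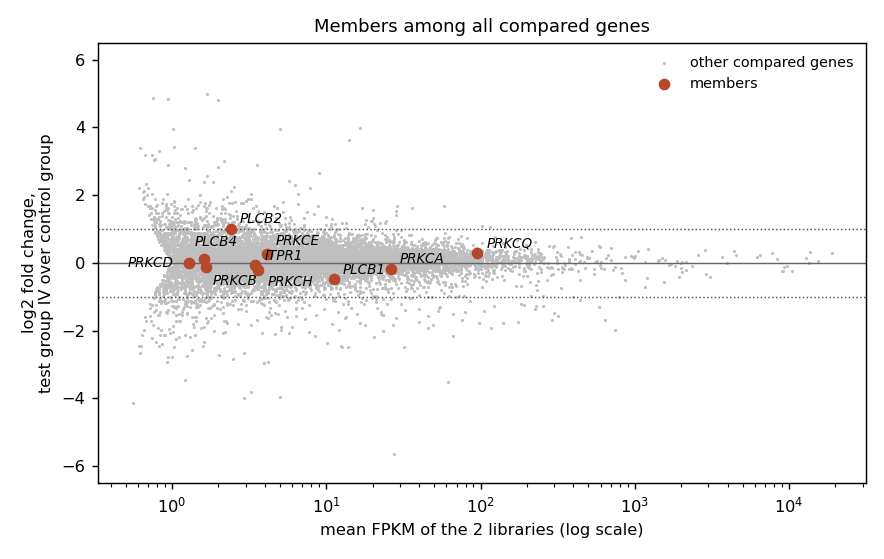
Log2 fold change of test group IV over the control group against the mean FPKM of the 2 libraries on a log axis, for the compared genes (grey) and the members (red); dotted lines mark 2-fold, and 37 compared genes with 0 fragments in test group IV have no fold change and are left out. Of the members, PLCB2 alone reaches the upper dotted line, and PRKCQ and PRKCA lie among the well expressed genes, where the scatter is narrow.

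The other genes of the pathway were taken from 10 lists of 122 symbols, of which 89 were found and 71 were among the compared genes. Of these 71 genes, 2 (EDNRB2 and DGKA) were higher by 2-fold or more in test group IV, and 2 (EDN2 and GAP43) were lower by that much. The interval lay above 0 for 20 genes (28.2%) and below 0 for 17 genes (23.9%), and the median log2 fold change was 0.04. Over all compared genes the matching shares were 3.1% and 3.31% at 2-fold, and 28.6% above and 15.3% below 0. After median ratio scaling DGKA no longer reached 2-fold, and the other 3 did.

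At the receptor step, 5 of 7 symbols were compared. EDN3, the gene of the ligand ET3 that the study's proposed network places above EDNRB2, was not found by symbol and has no value here. Genes with 0 fragments in the control group are not listed. In addition, 5006 of the listed genes carry no symbol. Whether EDN3 is one of these, or had fragments in test group IV alone, can therefore not be told. EDNRB2, an endothelin receptor of melanocytes in birds, had 67 fragments in test group IV and 4 fragments in the control group, or 1.90 FPKM in test group IV and 0.124 FPKM in the control group. The log2 value was 3.94, with an interval from 2.52 to 5.86. Its paralog EDNRB had 4.69 FPKM in test group IV and 8.01 FPKM in the control group. The ligand gene EDN2 had 38 fragments in test group IV and 75 fragments in the control group, which gave -1.11 on the log2 scale with an interval from -1.71 to -0.52. EDN1, another ligand gene, stood below the filter with 2 fragments in test group IV and 8 fragments in the control group, and its ratio of 0.229 had a log2 interval from -5.40 to 0.20. ECE1, which processes endothelin precursors, was the highest of this list with 8.54 FPKM in test group IV and 6.65 FPKM in the control group. As deposited, the value of EDNRB2 was thus far larger than the 1.01 of PLCB2, the highest value among the members. Its size depends on the low control level, and with 1 added to each FPKM value EDNRB2 stood at 1.37 and PLCB2 at 0.70. The deposited value of EDNRB (-0.77) lay between those of PLCB1 and EDN2.

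At the Gq step, 8 genes were compared, and the interval lay above 0 for 2 of them and below 0 for 2. GNAQ, which encodes the alpha subunit of Gq, had 215 fragments in test group IV and 218 fragments in the control group, with a 95% interval of the log2 fold change from -0.42 to 0.13. None of the 8 genes was at least 2-fold apart. RGS5, a regulator of G protein signalling known from pericytes, was the highest at 72.0 FPKM in test group IV and 90.2 FPKM in the control group. Beside the beta genes, 8 other phospholipase C or phospholipase C-like genes were compared. Of these, 6 were higher and 2 lower, none of them 2-fold, while 6677 of all compared genes were higher and 4333 lower. PLCD4, a delta isoform, was the highest phospholipase C gene at 32.2 FPKM in test group IV and 23.1 FPKM in the control group, above PLCB1 in both libraries. In all, 14 phospholipase C and phospholipase C-like genes were found, and PLCB3 was not. Of their summed FPKM, PLCB1 held 10.8% in test group IV and 17.6% in the control group. PLCL2, a phospholipase C-like gene, held 26.3% in test group IV and 23.7% in the control group. PLCB2 held 3.70% in test group IV and 2.14% in the control group.

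Outside the diacylglycerol-dependent isoforms, the atypical gene PRKCZ stood at 4.49 FPKM in both libraries and PRKCI at 4.18 FPKM in test group IV and 4.79 FPKM in the control group. The 6 compared kinases of this list were headed by PKN2, with 609 fragments in test group IV and 547 fragments in the control group, and none was 2-fold apart. The 9 compared genes that supply PIP2, the substrate of phospholipase C, had a median log2 fold change of 0.12. PIP4K2B, a lipid kinase, was the highest of them at 24.3 FPKM in test group IV and 19.6 FPKM in the control group.

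On the removal side, DGKA, a diacylglycerol kinase known from T cells, had 45 fragments in test group IV and 20 fragments in the control group. Its log2 value of 1.05 had an interval from 0.26 to 1.88, and it was 0.95 after median ratio scaling. T cell markers are given above, and their part in the DGKA difference was not tested. It was the only one of 7 compared genes of this list at least 2-fold apart, and IMPA2, an inositol monophosphatase, was the highest at 55.4 FPKM in test group IV and 49.9 FPKM in the control group. Among 4 compared diacylglycerol effectors other than protein kinase C, CHN2 was the highest at 9.43 FPKM in test group IV and 8.01 FPKM in the control group, and none was 2-fold apart.

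Among the substrates and scaffolds of protein kinase C, GAP43, a growth cone protein of neurons, had 4 fragments in test group IV and 25 fragments in the control group. This gave -2.77 on the log2 scale, with an interval from -4.75 to -1.23. The summed Schwann cell and nerve markers moved the same way, as given above, and their part in this difference was not tested. RACK1, the scaffold of activated protein kinase C, was the highest of the 9 compared genes at 61.3 FPKM in test group IV and 65.3 FPKM in the control group. Of 14 compared calcium effectors none was 2-fold apart, and the calcineurin subunit gene PPP3CA led them with 129.9 FPKM in test group IV and 126.7 FPKM in the control group.

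**Figure D5:**
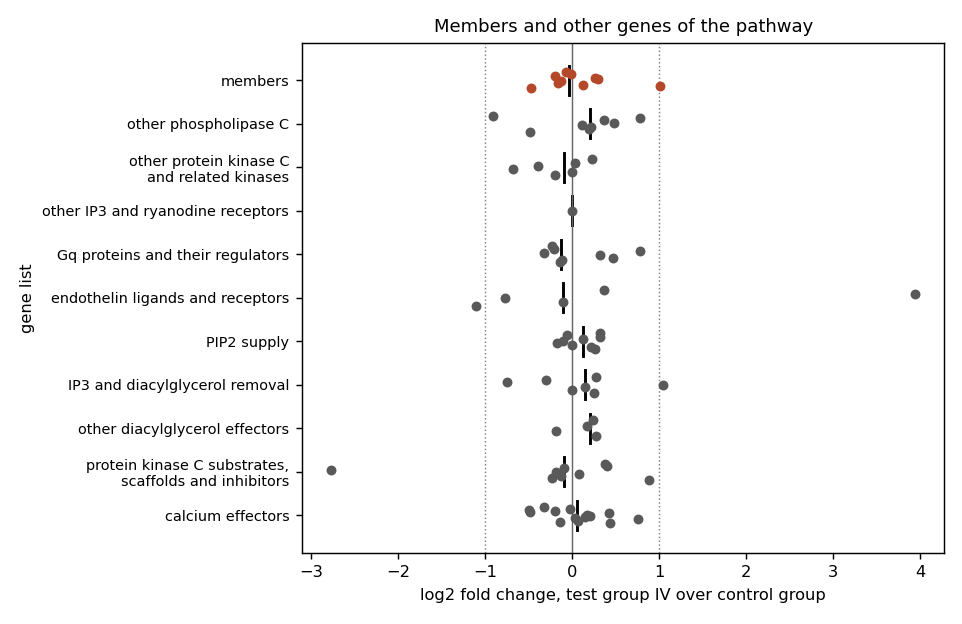
Log2 fold change, test group IV over the control group, of each compared gene among the members (red) and in the 10 other lists of the pathway (dark grey), with a black bar at the median of each list and dotted lines at 2-fold. Of the members only PLCB2 reaches the upper dotted line, while EDNRB2 at 3.94 and GAP43 at -2.77 lie far from the rest.

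The members lie on 6 chromosomes of the Galgal5 assembly. PLCB4 (chromosome 3 from 13955750 to 14046844) and PLCB1 (chromosome 3 from 14197437 to 14580122) are neighbours, with 151 kb and 0 listed genes between them. Their fold changes nevertheless differed, as the ratio of PLCB1 to PLCB4 given above shows. PLCB2 lies on chromosome 5 from 622099 to 658176, and of the 3 nearest listed genes on each side, 2 were among the compared genes, with log2 fold changes from -0.35 to 0.40. In the order of these values, the 2 neighbours had 42 and 72 fragments in test group IV. In the control group they had 49 and 50 fragments. The other neighbours of PLCB2 were below the filter. Whether the PLCB2 difference is shared by genes near it was not tested. PRKCQ lies on chromosome 1 from 3665779 to 3701334, and of its 4 compared neighbours 1 was at least 2-fold lower. PRKCA lies on chromosome 18 from 7389079 to 7502399, and 1 of its 6 compared neighbours was at least 2-fold higher. PRKCB is on chromosome 14 from 6697241 to 6772052, PRKCE on chromosome 3 from 26395277 to 26573746, and PRKCH on chromosome 5 from 54123881 to 54228128. PRKCD (from 1327662 to 1390974) and ITPR1 (from 18440425 to 18591147) are both on chromosome 12. None of the 10 loci overlaps another listed gene.

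The transcript length behind each FPKM value can be read from count, FPKM and depth, and it sets how many fragments a level yields. It was 9.86 kb for ITPR1 and 2.23 kb for PRKCH, the extremes of the 10 members. At almost equal FPKM, ITPR1 therefore had 478 fragments and PRKCH 108 fragments in test group IV. On the log2 scale the interval of ITPR1 reached 0.19 to either side of its centre and that of PRKCH 0.39. The widest was that of PRKCB, which reached 0.57, and the narrowest that of PRKCQ, which reached 0.06. The values are per gene and do not separate transcripts of a gene.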

How the data were processed

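RNA-seq values of 1 library per group (test group IV and the control group, breast muscle) were used. The authors mapped Seqtk-trimmed reads to Galgal5 (TopHat 2.0.9) and counted fragments with StringTie 1.3.0, and the deposited count of each gene is a whole number of fragments. The deposited FPKM values were calculated by the authors with a Perl script. The library kit was directional, and the strand setting of the counting is not given in the sources used here. Reads shared between related genes were not separated.

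Fold changes are FPKM ratios at a relative depth of 1.09025, taken from count and FPKM of 14277 genes. Genes with 0 fragments in the control group are not listed. Without replicates no test across genes was run, and edgeR 4.0.16 in R 4.3.3 served only for TMM factors. Intervals were computed with scipy 1.17.1 under Python 3.11.15, tables with pandas 2.3.3 and figures with matplotlib 3.10.9. The intervals were tested on simulated counts that held counting error only. That test therefore does not cover differences between birds, pools or library preparations. The members and lists were chosen with earlier results of these data known. Named beside the members are pathway genes at least 2-fold apart whose interval leaves out 0, the highest gene of each list, and EDNRB2, EDNRB, EDN1 and GNAQ. Older symbols were matched through a RefSeq gene table of the assembly GRCg7b. Symbols not found were not analysed here, and a gene with fragments in test group IV alone would be among them. So would a gene listed without a symbol, as 5006 of the listed genes are. Alternatives were other scalings, pseudocounts, filters, fold limits and confidence levels.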

Additional observations from a re-analysis of the deposited data

How the results depend on the processing

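The number of members at least 2-fold apart was 1 as deposited. It was 0 after median ratio scaling, 0 with TMM scaling, 0 with 0.1 added to each FPKM value and 0 with 1 added, because the log2 fold change of PLCB2 (1.01) became 0.92, 0.92, 0.97 and 0.70 under these settings in that order. It stayed at 1 with depth taken without mitochondrial genes or without the 10 genes with the most fragments, under both other filters and at 1.5-fold. The number of members whose counting interval left out 0 was 4 under every scaling and filter and at a 99% interval. The median over the members ranged from -0.13 (TMM scaling) to -0.02 (depth without mitochondrial genes). Of 60 recomputed member values, 58 moved by less than their interval reached to either side and 0 of the called values changed sign. The other 2 were PRKCQ under median ratio and TMM scaling (0.20 each, against 0.29). Ratios within a library do not depend on scaling. Among the other pathway genes, an alternative added after the data had been seen, 2 were at least 2-fold higher as deposited and 1 after median ratio or TMM scaling or with 0.1 or 1 added. The number at least 2-fold lower was 2, and 1 with 1 added, when EDN2 stood at -0.65 against -1.11 as deposited. EDNRB2, at 3.94 as deposited, stood at 3.16 with 0.1 added and at 1.37 with 1 added. Depth limits PRKCB most, and 1 library per group limits all comparisons.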
